A study of Mus musculus with 15 samples.

Results

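The small leucine-rich proteoglycans are secreted proteins of the extracellular matrix, and 10 of their genes were followed here in immortalised brown preadipocytes exposed to fibroblast growth factors (FGFs). The genes are Ogn, Aspn, Omd, Dcn, Lum, Bgn, Prelp, Fmod, Kera and Epyc. All 10 were found among the 29072 gene symbols of the expression table, each as its transcript with the highest mean level over the 15 libraries, and 9 were among the 13869 genes tested. The family was selected on earlier results of these data, namely the differences of Ogn and Aspn between FGF8b and control, which stood among the largest falls. The values of both genes in every treated group against control, and under FGF8b against FGF1, are therefore given as a description with no p. Their p-values for FGF9 and for FGF8b plus BAY-876 against FGF8b are kept, since choosing low FGF8b levels leans against the falls found there. The cells are precursors of brown fat from the stromal-vascular fraction of interscapular brown adipose tissue of 129SvEv mice, made to divide without limit with the SV40 large T antigen. The 15 libraries form 5 groups of 3. One group received FGF8b at 5.56 nM with BAY-876 at 2 µM, which blocks glucose uptake through GLUT1. The others received FGF9, FGF8b or FGF1, each at 5.56 nM, or no agent (control). Exposure to the FGFs lasted 48 h and included heparin, a cofactor of FGF binding, at 1 µg/ml, although the agent label names heparin for FGF9 alone. Neither heparin nor a time in culture is stated for the control cells, on which every difference from control rests, and no group received heparin alone or BAY-876 alone, so an effect of heparin cannot be told apart from that of the FGFs, nor an effect of BAY-876 from one that needs FGF8b. Nor do the labels tie replicates to separate cultures: the spread behind every p-value is that between these libraries, which may be technical.

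Small leucine-rich proteoglycans have a curved core of leucine-rich repeats, and many carry chains of chondroitin, dermatan or keratan sulfate. They bind fibrillar collagens and set how fibrils assemble, and several also bind growth factors or cell-surface receptors. Decorin (Dcn), biglycan (Bgn) and asporin (Aspn) form class I. Lumican (Lum), fibromodulin (Fmod), keratocan (Kera), PRELP (Prelp) and osteomodulin (Omd) form class II. Osteoglycin (Ogn) and epiphycan (Epyc) belong to class III. Fibroblastic cells, fat precursors among them, are known producers of decorin, biglycan and lumican.

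The genes lie in clusters (GENCODE vM21 on GRCm38; the build behind the expression table is not given in the sources used here). On chromosome 13, Aspn (49544443 to 49567565), Omd (49582462 to 49592822) and Ogn (49608046 to 49624501) follow each other on the plus strand. On chromosome 10, Dcn (97479609 to 97518143), Lum (97565128 to 97572703), Kera (97606879 to 97613692) and Epyc (97644068 to 97682454) do so. Chromosome 1 holds Prelp (133910304 to 133921414, minus strand) and Fmod (134037254 to 134048277, plus strand), and the X chromosome holds Bgn (73483602 to 73495933, plus strand). Promoters of 300 bases, 250 before and 50 after the start, were found for 8 of the 10 genes in RefSeq on GRCm38.p6, with 9 promoters in all. Those of the chromosome 13 neighbours, whose levels were lower together, and that of Bgn, whose level under FGF8b was close to control, are printed 5′ to 3′ in lower case, with motif matches in capitals.
Aspn (chr13:49544193-49544492, plus strand): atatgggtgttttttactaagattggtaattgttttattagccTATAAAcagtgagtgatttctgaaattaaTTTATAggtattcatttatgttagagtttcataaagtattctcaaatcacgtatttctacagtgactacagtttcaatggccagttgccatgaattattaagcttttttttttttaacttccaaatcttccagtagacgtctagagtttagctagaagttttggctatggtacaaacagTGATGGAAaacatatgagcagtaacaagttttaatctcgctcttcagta
Omd (chr13:49582212-49582511, plus strand): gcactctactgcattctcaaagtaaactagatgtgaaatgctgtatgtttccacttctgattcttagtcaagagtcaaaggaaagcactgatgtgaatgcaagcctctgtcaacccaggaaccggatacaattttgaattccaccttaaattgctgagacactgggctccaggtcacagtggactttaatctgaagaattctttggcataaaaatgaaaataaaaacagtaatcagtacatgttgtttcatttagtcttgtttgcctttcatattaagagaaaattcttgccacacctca
Ogn (chr13:49607765-49608064, plus strand): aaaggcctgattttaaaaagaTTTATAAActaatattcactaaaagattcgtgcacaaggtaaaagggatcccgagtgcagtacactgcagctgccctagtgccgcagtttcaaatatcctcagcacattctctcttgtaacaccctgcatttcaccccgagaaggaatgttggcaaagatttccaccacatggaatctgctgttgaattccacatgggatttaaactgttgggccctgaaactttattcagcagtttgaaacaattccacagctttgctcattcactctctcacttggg
Bgn (chrX:73483351-73483650, plus strand): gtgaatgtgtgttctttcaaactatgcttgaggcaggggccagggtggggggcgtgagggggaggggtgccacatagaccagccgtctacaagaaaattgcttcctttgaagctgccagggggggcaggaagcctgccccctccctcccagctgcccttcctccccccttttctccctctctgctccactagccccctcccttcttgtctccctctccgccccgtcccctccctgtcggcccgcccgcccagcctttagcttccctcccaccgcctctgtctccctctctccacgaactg
The GC content of these promoters was 31% for Aspn, 37.7% for Omd, 42.3% for Ogn and 63.7% for Bgn, against a median of 52.7% over all promoters in the table. The motifs searched on both strands were TATAAA (the core of a TATA box), TGANTCA (the AP-1 site), CACGTG (an E-box), TGATGNAA (the CEBP-ATF composite site) and CCGGAA (an ETS core). Of 32851 promoters of the same length, these occurred in 13.6%, 7.81%, 7.15%, 3.97% and 14.9%, in that order. Aspn had TATAAA at 207 bases before the start and on the other strand at 178 bases before it, and TGATGNAA at the start. Ogn had TATAAA on both strands, in matches that overlap each other at 227 and 229 bases before the start. The first Epyc promoter had TGATGNAA at 90 bases before the start. The other promoters of these genes, those of Omd and Bgn included, held none of the motifs, which says only that these letters are not in these windows.

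Levels are in RPKM, reads scaled for transcript length and sequencing depth, so levels of different genes can be set side by side per length. Depth was 27.01 to 42.6 M reads per library, recovered from the steps of the values, and 1 read on a transcript of 1 kb was worth 0.0234 to 0.0370 RPKM. Libraries of a group correlated at 0.991 to 0.997 across tested genes, and libraries of different groups at 0.879 to 0.996. Tests used limma on log2(RPKM + 0.5) over all 5 groups, with Benjamini-Hochberg adjustment over the 13869 genes and a threshold of 0.05. A log2 difference on this scale understates the change of genes at low levels, so reads summed over the 3 libraries of a group are given for those. In whole-culture RNA, fewer cells of a type and less RNA per cell cannot be told apart.

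The 10 levels summed to 394 to 417 RPKM under FGF8b plus BAY-876, 1588 to 1683 under FGF9, 1608 to 1704 under FGF8b, 1668.5 to 1699.8 under FGF1 and 1761 to 1845 in control. The sum was thus close in the FGF9, FGF8b and FGF1 groups, with control above them and the BAY-876 group far below. What made up the sum differed. Bgn took 83.4 ± 1.90% under FGF8b plus BAY-876, 46.5 ± 1.96% under FGF9, 49.0 ± 2.24% under FGF8b, 73.5 ± 1.29% under FGF1 and 45.9 ± 2.78% in control (mean ± SD, n = 3 each). Ogn took 0.149 ± 0.00205% under FGF8b plus BAY-876, 0.206 ± 0.0235% under FGF9, 0.303 ± 0.0342% under FGF8b, 7.75 ± 0.323% under FGF1 and 23.1 ± 2.26% in control. The ratio of Dcn to Bgn averaged 0.194 ± 0.0269 under FGF8b plus BAY-876, 1.11 ± 0.0897 under FGF9, 1.01 ± 0.0886 under FGF8b, 0.221 ± 0.0146 under FGF1 and 0.576 ± 0.0385 in control. So FGF8b and FGF9 libraries held about as much Dcn as Bgn, and FGF1 libraries held far less. Sums, shares and ratios rest on 1 transcript per gene, the one with the highest mean. Means over the 15 libraries ran from 21.1 to 492.5 RPKM for the 8 Dcn transcripts and from 10.5 to 793.8 for the 10 of Bgn.

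**Figure D1:**
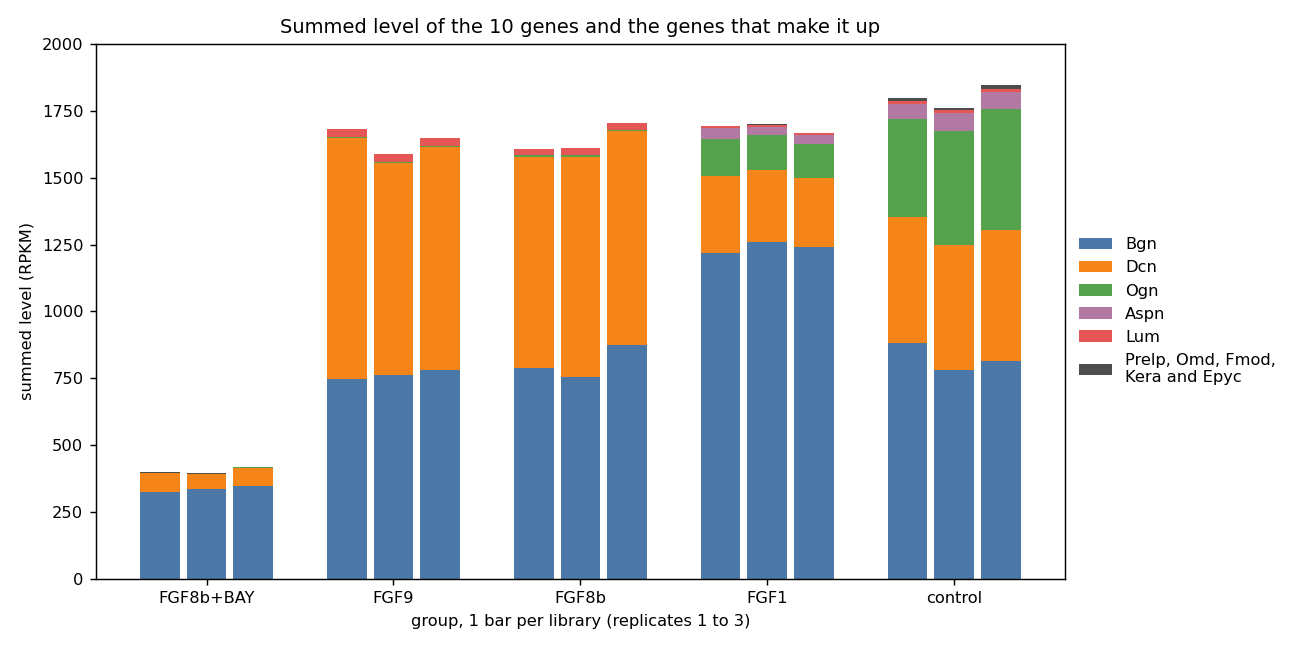
Summed level of the 10 genes in RPKM, 1 bar per library (replicates 1 to 3 of each group), divided by gene. Bgn and Dcn make up nearly all of the bars under FGF9 and FGF8b, Ogn and Aspn are visible under FGF1 and in control, and the FGF8b plus BAY-876 bars reach 394 to 417 RPKM.

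Ogn and Aspn, whose low levels under FGF8b chose the family, were abundant in control and low under FGF8b and FGF9. Ogn encodes osteoglycin, also called mimecan, a small matrix protein found in bone, cornea and connective tissue. Its level was 0.585, 0.596 and 0.627 RPKM under FGF8b plus BAY-876, 3.66, 2.835 and 3.64 under FGF9, 4.93, 5.40 and 4.55 under FGF8b, 137.6, 128.3 and 126.5 under FGF1, and 369, 428 and 454 in control. No neighbours in this order overlapped, and all 3 libraries of every FGF group lay below all 3 control libraries. By mean level Ogn ranked 12574 of 13869 under FGF8b plus BAY-876, 8705 under FGF8b, 575 under FGF1 and 171 in control.

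As a description, the log2 difference of Ogn from control was -8.56 ± 0.0925 (SE) under FGF8b plus BAY-876, -6.75 under FGF9, -6.25 under FGF8b and -1.66 ± 0.0925 under FGF1. FGF8b against FGF1, also a description, was -4.59. In summed reads, scaled for depth, Ogn under FGF8b was 0.01196 times control (835 reads under FGF8b against 76366 in control; exact 95% interval 0.0112 to 0.0128, counting error only). FGF9 lay below FGF8b by a log2 difference of -0.50 ± 0.0925 (adjusted p = 0.0327), but this call was lost in 9 of 17 alternative settings, with adjusted p of 0.0123 to 0.372.

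Aspn encodes asporin, which binds collagen and, in cartilage, TGF-beta. It had 0, 0.176 and 0 RPKM under FGF8b plus BAY-876, 0.477, 0.334 and 0.233 under FGF9, 0.5004, 0.582 and 0.735 under FGF8b, 39.2, 32.7 and 35.5 under FGF1, and 55.95, 65.7 and 63.2 in control. As for Ogn, the order of the groups held in every library, and FGF1 stayed far nearer to control than the other FGFs. The transcript counted is only 577 bases long, and the low groups rest on few reads: 3 under FGF8b plus BAY-876, 24 under FGF9 and 33 under FGF8b, against 3696 in control. Aspn reads under FGF8b were 0.00976 times control (exact 95% interval 0.00671 to 0.0137), and those under FGF8b plus BAY-876 0.000773 times (0.000159 to 0.00226). As a description, FGF8b against FGF1 was -5.04 on the log2 scale. FGF1 against control, likewise a description, gave -0.78 ± 0.135. It ran from -0.84 to -0.71 over 17 alternatives. All 4 Aspn transcripts and all 6 Ogn transcripts of the table were lower than control in each of the 4 treated groups.

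Omd, the gene between Aspn and Ogn, encodes osteomodulin, a keratan sulfate proteoglycan known from bone. It had 6 reads under FGF8b plus BAY-876, 17 under FGF9, 23 under FGF8b, 164 under FGF1 and 660 in control. Its level was 0.0347 ± 0.0157 RPKM under FGF8b plus BAY-876, 0.0898 ± 0.0835 under FGF9, 0.154 ± 0.0157 under FGF8b, 1.20 ± 0.178 under FGF1 and 4.07 ± 0.406 in control (mean ± SD, n = 3 each). The treated groups all lay below control without overlap, while FGF9 overlapped both FGF8b and FGF8b plus BAY-876. It passed the filter on low values through FGF1 and control only. Its lower level in the other groups was therefore fixed by the filter, and no p is given for it. As a description, Omd reads scaled for depth were 0.00866 times control under FGF8b plus BAY-876 (exact 95% interval 0.00317 to 0.0190), 0.0226 times under FGF9 (0.0131 to 0.0364) and 0.0381 times under FGF8b (0.0240 to 0.0577). FGF1 against control, where both groups passed, gave a log2 difference of -1.43 ± 0.111 (adjusted p = 8.26e-08). FGF8b plus BAY-876 against FGF8b gave -0.29 ± 0.111 (adjusted p = 0.0343). That call was lost in 7 of 17 alternatives, 5 of them leaving out 1 library, with adjusted p up to 0.094.

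**Figure D2:**
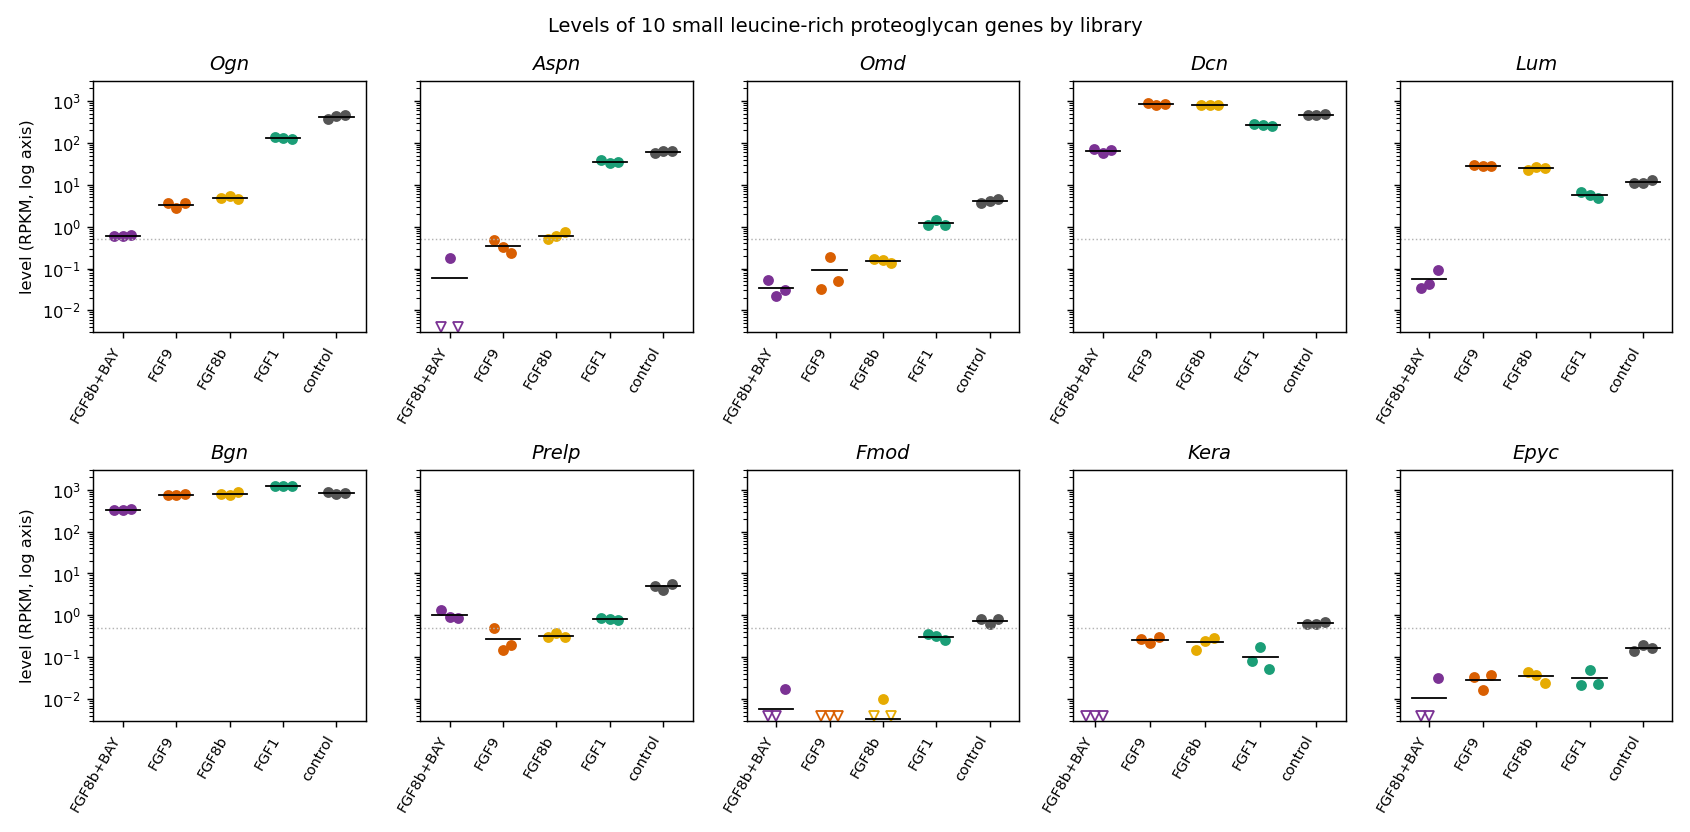
Level of each gene in RPKM on a log axis, with 1 point per library, groups along the horizontal axis, bars at the group means and a dotted line at 0.5 RPKM, the minimum used for testing. Open triangles at the bottom mark libraries at 0. Ogn, Aspn and Omd are lowest under FGF8b plus BAY-876, low under FGF9 and FGF8b and nearer to control under FGF1, while Dcn and Lum are highest under FGF9 and FGF8b.

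Dcn and Lum went the other way under FGF8b and FGF9 and were low with BAY-876. Dcn encodes decorin, which coats collagen fibrils and binds TGF-beta, EGFR and MET. Its level was 71.8, 56.4 and 67.4 RPKM under FGF8b plus BAY-876, 902, 794 and 836 under FGF9, 793, 824 and 800.0 under FGF8b, 289, 270.6 and 259.9 under FGF1, and 469, 467 and 487 in control. FGF9 and FGF8b overlapped and stood above control, FGF1 stood below control, and the BAY-876 group was the lowest. The log2 difference from control was 0.83 ± 0.0754 under FGF9 (adjusted p = 9.83e-08), 0.76 ± 0.0754 under FGF8b (adjusted p = 2.77e-07) and -0.80 ± 0.0754 under FGF1 (adjusted p = 7.11e-07). Dcn thus rose under FGF8b and FGF9 and fell under FGF1. FGF8b against FGF1 was 1.56 ± 0.0754 (adjusted p = 7.81e-11).

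Lum encodes lumican, known for the ordered collagen of the transparent cornea. It had 0.0348, 0.0435 and 0.0905 RPKM under FGF8b plus BAY-876, 29.5, 27.9 and 28.1 under FGF9, 23.1, 27.0 and 24.6 under FGF8b, 6.65, 5.69 and 4.85 under FGF1, and 11.2, 11.3 and 12.9 in control. No neighbours in the order of means overlapped. Lum rose against control by a log2 difference of 1.24 ± 0.0981 under FGF9 (adjusted p = 1.79e-08) and 1.05 ± 0.0981 under FGF8b (adjusted p = 1.46e-07), and fell under FGF1, at -0.99 ± 0.0981 (adjusted p = 1.24e-06). FGF8b against FGF1 was 2.03 ± 0.0981 (adjusted p = 7.63e-11).

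Lum and Dcn, both higher under FGF8b than in control, were low where BAY-876 was added to FGF8b. Dcn was lower than with FGF8b alone by a log2 difference of -3.62 ± 0.0754 (adjusted p = 1.4e-14), which is 0.0817 times the FGF8b reads scaled for depth (9687 reads with BAY-876 against 103335 with FGF8b alone; exact 95% interval 0.07999 to 0.0834). Lum was lower by a log2 difference of -5.51 ± 0.0981 (adjusted p = 2.69e-15), with 10 reads with BAY-876 against 3698 with FGF8b alone, or 0.00236 times (0.00113 to 0.00434). Lum ranked 13724 of 13869 under FGF8b plus BAY-876 and 3403 under FGF8b. All 8 Dcn transcripts and all 3 Lum transcripts in the table were lower. Ogn was also lower with BAY-876 than with FGF8b alone, with a log2 difference of -2.31 ± 0.0925 (adjusted p = 1.76e-11), and Aspn with one of -0.995 ± 0.135 (adjusted p = 1.35e-05).

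Bgn encodes biglycan, which resembles decorin, binds collagen and, once released from the matrix, is a ligand of Toll-like receptors. It had 324, 336 and 348 RPKM under FGF8b plus BAY-876, 746, 763 and 779 under FGF9, 786, 754 and 874 under FGF8b, 1219, 1259.8 and 1239.5 under FGF1, and 882, 779.8 and 816 in control. FGF1 was above every other library and FGF8b plus BAY-876 below, while FGF9 lay just under control without overlap and FGF8b overlapped both. Bgn rose under FGF1 by a log2 difference of 0.59 ± 0.0613 (adjusted p = 2.04e-06), where it ranked 20 of 13869. The difference was -0.04 ± 0.0613 under FGF8b (adjusted p = 0.603) and -0.11 ± 0.0613 under FGF9 (adjusted p = 0.116). Under FGF9 the gene passed as lower with 2 other scalings, at -0.20 with TMM (adjusted p = 0.0079) and -0.15 with median scaling (adjusted p = 0.034), within a range of 0.0079 to 0.396 over 17 alternatives. Of its 10 transcripts, 9 were lower and 1 higher than control under each of FGF8b and FGF9. FGF8b against FGF1 was -0.63 ± 0.0613 (adjusted p = 3.3e-07). With BAY-876 added to FGF8b, Bgn fell by 1.26 ± 0.0613 on the log2 scale (adjusted p = 1.675e-10), less than Dcn or Lum.

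Prelp encodes a heparin-binding member that anchors basement membranes to connective tissue. It had 1.31, 0.903 and 0.883 RPKM under FGF8b plus BAY-876, 0.486, 0.146 and 0.196 under FGF9, 0.312, 0.374 and 0.301 under FGF8b, 0.872, 0.810 and 0.783 under FGF1, and 5.11, 4.04 and 5.73 in control. Every treated library was below control. Prelp was the 1 tested gene of the family whose 3 libraries with BAY-876 all lay above those with FGF8b alone. It passed the filter on low values through FGF8b plus BAY-876, FGF1 and control, with 0 libraries at 0.5 RPKM under FGF9 or FGF8b. Its lower level in those groups was therefore largely fixed, and no p is given for differences that involve them. As a description, BAY-876 with FGF8b against FGF8b alone was 0.88 ± 0.155 on the log2 scale. Reads were 93 with BAY-876 against 26 with FGF8b alone, or 3.12 times (exact 95% interval 2.00 to 5.02). Against control the log2 difference was -1.83 ± 0.155 under FGF8b plus BAY-876 and -2.03 ± 0.155 under FGF1 (largest adjusted p = 6.92e-08). As a description, it was -2.83 ± 0.155 under FGF9 and -2.71 ± 0.155 under FGF8b.

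Fmod, Kera and Epyc were near the lower limit. Fmod encodes fibromodulin, a collagen-binding protein of tendon and cartilage. It had 2 reads under FGF8b plus BAY-876, 0 under FGF9, 1 under FGF8b, 76 under FGF1 and 214 in control, where its level was 0.745 ± 0.116 RPKM (SD, n = 3). It was higher in control than under FGF9 by at least 65.6-fold, the bound of the exact 95% interval. Under FGF8b it was 0.00511 times control (exact 95% interval 0.000129 to 0.0288). Under FGF1 it was 0.418 times control (0.317 to 0.545). Kera encodes keratocan, a keratan sulfate proteoglycan of the cornea. It had 0 reads under FGF8b plus BAY-876, 61 under FGF9, 42 under FGF8b, 17 under FGF1 and 133 in control, where its level was 0.654 ± 0.0373 RPKM.

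Control libraries were thus the highest for both genes, and each passed the filter on low values through control alone, so no p is given for either against control. Kera reads were 0.402 times control under FGF9 (exact 95% interval 0.292 to 0.548), 0.345 times under FGF8b (0.238 to 0.492) and 0.150 times under FGF1 (0.0850 to 0.250). Kera was higher under FGF8b alone than with BAY-876 by at least 12.5-fold, the bound of the exact 95% interval (fitted log2 difference with BAY-876 -0.54 ± 0.0992, adjusted p = 0.000268). FGF8b against FGF1 gave a Kera difference of 0.28 ± 0.0992 (adjusted p = 0.0255) with overlapping groups, a call that was lost in 5 of 16 alternatives with adjusted p up to 0.107. Epyc, whose product epiphycan is known from growth-plate cartilage, was not tested. It had 2 reads under FGF8b plus BAY-876, 5 under FGF9, 5 under FGF8b, 4 under FGF1 and 25 in control, and its highest library, in control, reached 0.196 RPKM.

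**Figure D3:**
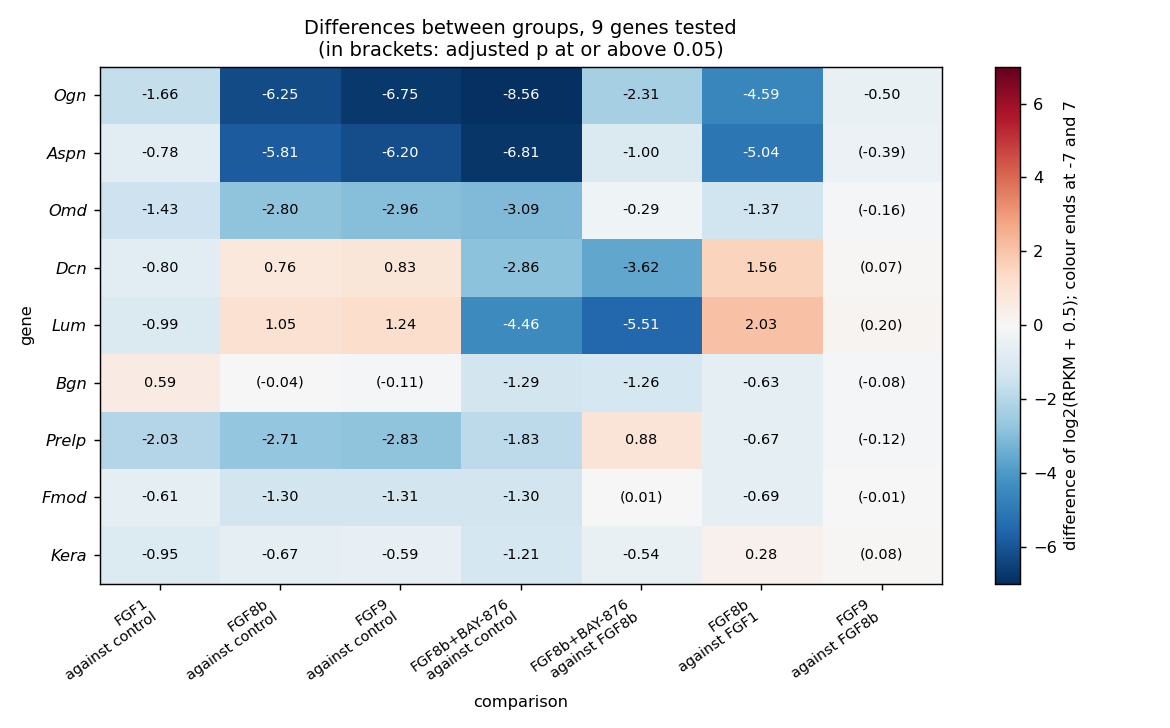
Difference of log2(RPKM + 0.5) for the 9 genes tested (rows) in 7 comparisons (columns), the group named first in each minus the other. Values in brackets did not pass an adjusted p of 0.05. For differences that the text gives as a description or without a p, a missing bracket is not read as a test result. Dcn and Lum are higher under FGF8b and FGF9 than in control and lower with BAY-876. Prelp alone has a positive value without brackets for FGF8b plus BAY-876 against FGF8b, and FGF9 against FGF8b has 1 value past the threshold.

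The counts over the 9 tested genes are given beside those over all genes as a description, and nothing is read from them. Ogn and Aspn chose the family, Fmod and Kera passed the filter through control alone and Omd through FGF1 and control, so their places among the lower genes were largely fixed. Prelp passed the filter through FGF8b plus BAY-876, FGF1 and control, so its place under FGF8b and FGF9 was largely fixed too. Under those FGFs this covers all 6 lower genes. Under FGF1, 1 of the 9 was higher than control (Bgn) and 8 were lower, with a background of 34.4% of all tested genes called in either direction, 19.3% higher and 15.1% lower. Under FGF8b, 2 were higher (Dcn and Lum), 6 lower and 1 not past the threshold, with 64.4% of all genes called, 37.8% higher and 26.6% lower. FGF9 gave the same counts, with 65.7% of all genes called, 38.7% higher and 27% lower. Under FGF8b plus BAY-876 all 9 tested genes were lower than control, where 72.7% of all genes were called, 36.8% higher and 35.9% lower. The median log2 difference of the 9 from control was -2.86 under FGF8b plus BAY-876, -1.31 under FGF9, -1.30 under FGF8b and -0.95 under FGF1, beside medians over all tested genes of 0.01 under FGF8b plus BAY-876, 0.09 under FGF9, 0.08 under FGF8b and 0.02 under FGF1. The medians under FGF9 and FGF8b are the values of Fmod, and that under FGF1 is the value of Kera, so they too were largely fixed. These comparisons share the control libraries.

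FGF8b plus BAY-876 against FGF8b gave 1 higher (Prelp), 7 lower and 1 not past the threshold (Fmod), against 57.3% of all genes called, 22.5% higher and 34.8% lower. The median of the 9 was -0.995, the value of Aspn, beside -0.08 for all genes. FGF8b against FGF1 gave 3 higher (Dcn, Lum and Kera) and 6 lower, where 59.9% of all genes were called, 33.3% higher and 26.6% lower. The median was -0.67, the value of Prelp, beside 0.04. FGF9 against FGF8b gave 1 lower (Ogn) and 8 not past the threshold, where 0.296% of all genes were called. For those 8 the log2 difference ran from -0.39 ± 0.135 for Aspn (adjusted p = 0.497) to 0.20 ± 0.0981 for Lum (adjusted p = 0.761), which does not show that both FGFs act alike.

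On chromosome 13, Ecm2 had the same order of groups as its neighbours Aspn, Omd and Ogn. Ecm2, a leucine-rich repeat matrix gene 11.7 kb upstream of Aspn, had 0.0425 ± 0.0135 RPKM under FGF8b plus BAY-876, 0.318 ± 0.0495 under FGF9, 0.542 ± 0.0750 under FGF8b, 3.29 ± 0.0397 under FGF1 and 8.09 ± 0.846 in control (SD, n = 3 each). The genes lie close together, with 14.9 kb from Aspn to Omd and 15.2 kb from Omd to Ogn. Under FGF8b against control, Ecm2 fell by 3.04 ± 0.0911 on the log2 scale (adjusted p = 1.97e-13). Genes further outward were looked up after the values were seen, and none of those named next passed as lower in that comparison. Tes3-ps, the next gene beyond Ecm2, rose by 0.40 ± 0.0857 (adjusted p = 0.000783). Ippk, which makes an inositol phosphate, differed by -0.01 ± 0.0921 (adjusted p = 0.921). Nol8, a nucleolar protein gene, rose by 0.40 ± 0.0917 (adjusted p = 0.00129). Iars, the isoleucyl-tRNA synthetase gene, rose by 2.06 ± 0.0620 (adjusted p = 2.05e-13). Cenpp, a centromere protein gene whose span covers the whole cluster on the other strand, had a difference of 0.18 ± 0.121 (adjusted p = 0.213) at 11.2 ± 1.43 RPKM under FGF8b and 9.87 ± 1.56 in control. With BAY-876 added to FGF8b, Cenpp fell as the cluster did, with a difference of -0.92 ± 0.121 (adjusted p = 9.99e-06). Tes3-ps had one of -0.26 ± 0.0857 (adjusted p = 0.0160) and Iars one of -0.17 ± 0.0620 (adjusted p = 0.0283). Nol8 went the other way, at 0.50 ± 0.0917 (adjusted p = 0.000248), and Ippk did not pass, at 0.10 ± 0.0921 (adjusted p = 0.349). Against control, Cenpp under FGF8b plus BAY-876 was at -0.74 ± 0.121 (adjusted p = 4.6e-05). Whether the counting used strand is not stated, so reads of Cenpp and of the cluster in overlapping parts cannot be told apart.

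On chromosome 10, Dcn and Lum rose under FGF8b against control, while Kera, 34.2 kb beyond Lum, had the reads given above, a difference that carries no test. With BAY-876 added to FGF8b, all 3 tested genes there fell. On chromosome 1, Optc, a class III gene next to Prelp, stayed under 0.65 RPKM in all libraries. It passed the filter on low values through control alone, so its difference of -0.94 under FGF8b against control is a description with no p. FGF8b plus BAY-876 against FGF8b gave 0.02 ± 0.130 for Optc (adjusted p = 0.888).

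**Figure D4:**
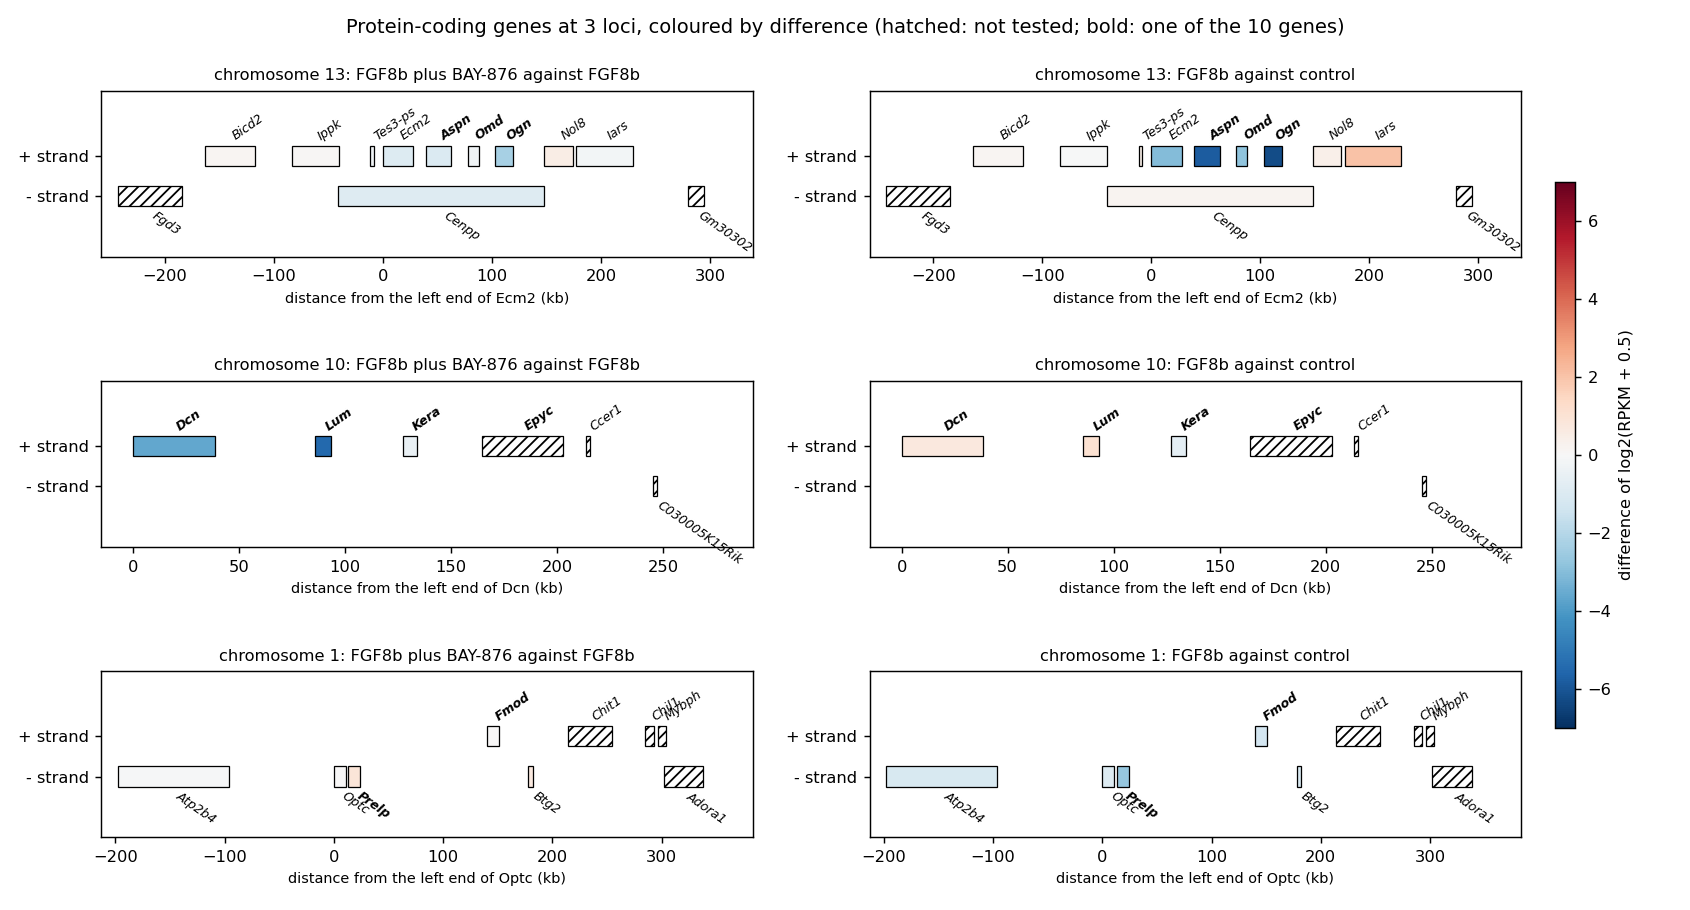
Protein-coding genes around the clusters on chromosomes 13, 10 and 1, by distance in kb and strand, coloured by the difference of log2(RPKM + 0.5) for FGF8b plus BAY-876 against FGF8b (left) and FGF8b against control (right), with untested genes hatched and the 10 genes in bold. Ecm2, Aspn, Omd and Ogn are blue against control. With BAY-876 Ogn is blue, Ecm2 and Aspn are faintly so, and Omd, at -0.29, is nearly white. Dcn and Lum are red against control and blue with BAY-876.

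The genes with the most similar profiles were taken by the smallest root mean square difference between profiles of log2(RPKM + 0.5) over the 15 libraries, each centred on its mean. For Ogn this was Igf1 (0.562), the insulin-like growth factor gene, followed by Egfl6 and Iigp1. For Aspn it was Egfl6 (0.438), then Igf1 and Mest. Egfl6, a matrix protein gene, had 0.0105 ± 0.00195 RPKM under FGF8b plus BAY-876, 0.119 ± 0.0491 under FGF9, 0.207 ± 0.0341 under FGF8b, 13.6 ± 0.536 under FGF1 and 34.6 ± 2.57 in control. The nearest to Bgn was Lsp1 (0.0854), a leukocyte-specific actin-binding protein gene, then Pros1 and Loxl3, a lysyl oxidase relative. Lum was nearest to Ccl11 (0.751), the eotaxin gene, and Dcn to Smarca1 (0.453), a chromatin remodeller, so both had looser matches than Bgn. Omd was nearest to Fmo1 (0.190), a flavin monooxygenase gene. The points share libraries and groups, and no p is given.

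Other genes of the pathway are given by lists chosen with earlier results known. Of the 8 further small leucine-rich repeat genes, 5 were tested, and under FGF8b 3 of them fell against control, 0 rose and 2 did not pass, where 26.6% of all genes fell and 37.8% rose. The median log2 difference was -0.94, beside 0.08 for all genes. Optc is among the 3 that fell, and its value is that median. It passed the filter on low values through control alone, so its place was largely fixed. In each list the 4 tested genes with the largest difference under FGF8b against control are named; here Ecm2 and Optc are given above. Podn, encoding podocan, had 0.773 ± 0.0412 RPKM under FGF8b plus BAY-876, 1.45 ± 0.145 under FGF9, 1.57 ± 0.168 under FGF8b, 12.6 ± 1.09 under FGF1 and 4.64 ± 0.479 in control. Like Bgn it was highest under FGF1, where its log2 difference from control was 1.35 ± 0.0978 (adjusted p = 4.29e-08). Podnl1 also rose there, by 0.83 ± 0.156 (adjusted p = 0.000602).

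The fibrillar collagens, which these proteoglycans bind, did not follow Dcn under FGF8b against control, but fell as Dcn did with BAY-876 added. All 7 tested of 9 fell under FGF8b against control, where 26.6% of all genes fell, with a median log2 difference of -1.39 beside 0.08 for all genes. With BAY-876 added to FGF8b all 7 fell again, where 34.8% of all genes fell, with a median of -1.96 beside -0.08. Col1a1 had 9.66 ± 1.86 RPKM under FGF8b plus BAY-876, 91.2 ± 26.5 under FGF9, 85.2 ± 15.7 under FGF8b, 456 ± 29.7 under FGF1 and 433 ± 79.5 in control. Col1a2 had 55.8 ± 6.998 RPKM under FGF8b plus BAY-876, 212 ± 30.7 under FGF9, 219 ± 25.02 under FGF8b, 953 ± 10.1 under FGF1 and 991 ± 106 in control. Dcn therefore stood above both collagen genes under FGF8b and FGF9, and below Col1a2 under FGF1 and in control. Under FGF1 against control, 4 of the 7 rose, 1 fell (Col5a3) and 2 did not pass, where 19.3% of all genes rose and 15.1% fell. Col5a3 and Col5a2, of type V collagen, had differences under FGF8b of -2.10 ± 0.128 and -1.39 ± 0.0625 (adjusted p = 9.15e-10 and 2.37e-11).

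Enzymes that build the sugar chains were mixed. Of 22 genes for the linker and the chondroitin and dermatan sulfate chains, 20 were tested, and under FGF8b 11 rose, 6 fell and 3 did not pass against control, where 37.8% of all genes rose and 26.6% fell. The median was 0.23, beside 0.08 for all genes. Csgalnact1, which starts chondroitin chains, had 11.1 ± 0.659 RPKM under FGF8b plus BAY-876, 12.4 ± 0.884 under FGF9, 12.1 ± 0.197 under FGF8b, 11.3 ± 0.307 under FGF1 and 5.10 ± 0.303 in control. It was higher in every treated library than in control. Dse, the epimerase that turns chondroitin into dermatan sulfate, had 13.4 ± 0.679 RPKM under FGF8b plus BAY-876, 19.9 ± 0.638 under FGF9, 21.8 ± 0.663 under FGF8b, 41.5 ± 0.956 under FGF1 and 40.7 ± 1.32 in control. It was low wherever FGF8b or FGF9 was given, and its log2 difference under FGF8b was -0.89 ± 0.0526 (adjusted p = 6.35e-10). Chst12, a chondroitin sulfotransferase, differed under FGF8b by -1.08 ± 0.161 (adjusted p = 2.6e-05), and Chsy1, a chondroitin synthase, by 0.98 ± 0.0523 (adjusted p = 1.95e-10). Of 9 keratan sulfate enzymes, 6 were tested, with 2 higher, 2 lower and 2 not past the threshold under FGF8b, close to the shares of all genes (37.8% higher, 26.6% lower). Fut8, the core fucosyltransferase, rose by 1.46 ± 0.0757 (adjusted p = 1.28e-10), and Chst1, a keratan sulfate sulfotransferase, by 0.57 ± 0.108 (adjusted p = 0.000254). The galactosyltransferase genes B4galt4 and B4galt1 had differences of -0.28 ± 0.0776 and -0.20 ± 0.0549 (adjusted p = 0.00529 and 0.00426).

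Genes of proteases known to process or cut these proteoglycans were mostly lower. Their list of 13 also holds Pcolce, which encodes an enhancer of such a protease and not a protease. Of the 13, 11 were tested, and under FGF8b against control 1 rose, 8 fell (Pcolce included) and 2 did not pass. Of all genes 37.8% rose and 26.6% fell. The list had a median log2 difference of -1.002 beside 0.08 for all genes. Adamts1 had 13.3 ± 0.883 RPKM under FGF8b plus BAY-876, 8.18 ± 0.400 under FGF9, 8.56 ± 0.498 under FGF8b, 57.2 ± 3.19 under FGF1 and 143 ± 2.45 in control. It was lowest under FGF8b and FGF9, and rose by 0.60 ± 0.0637 with BAY-876 against FGF8b alone (adjusted p = 1.03e-06). Under FGF8b against control, Adamts5 differed by -2.84 ± 0.0818, Mmp9 by -2.21 ± 0.118 and Mmp3 by -2.02 ± 0.133 (largest adjusted p = 2.39e-09). Adamts5 and Mmp3 also fell with BAY-876 against FGF8b alone, by 0.89 ± 0.0818 and 2.00 ± 0.133 on the log2 scale (adjusted p = 2.29e-07 and 5.93e-09). Of 18 symbols for growth factors and receptors known to bind family members, 17 were in the table and 16 were tested, and under FGF8b 2 rose, 10 fell and 4 did not pass, where 37.8% of all genes rose and 26.6% fell. The median was -0.44, beside 0.08 for all genes. Tgfb2 differed by -2.44 ± 0.104 and Egfr by -2.05 ± 0.0856 (largest adjusted p = 1.2e-11). Kdr, a VEGF receptor gene, at -3.65 and Bmp4 at -1.94 passed the filter on low values through FGF1 and control only. Their places among the 10 that fell were therefore largely fixed, and no p is given for them. Egfr, a receptor that decorin binds, had 2.25 ± 0.319 RPKM under FGF8b plus BAY-876, 8.19 ± 0.643 under FGF9, 8.22 ± 0.459 under FGF8b, 21.4 ± 1.19 under FGF1 and 35.5 ± 0.958 in control.

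Markers of the labelled cells and of other cells moved beside these genes. All 11 preadipocyte and fibroblast markers were detected (at least 0.5 RPKM in 3 libraries), and their summed level was 205 to 209.8 RPKM under FGF8b plus BAY-876, 1022 to 1041 under FGF9, 1008 to 1195 under FGF8b, 3090.3 to 3198 under FGF1 and 3097 to 3554 in control. Of these 11, Col1a1 and Col3a1 are also fibrillar collagens of the list above. The 3 tendon markers, all detected, summed to 0.936 to 1.10 RPKM under FGF8b plus BAY-876, 1.89 to 2.23 under FGF9, 1.68 to 1.95 under FGF8b, 3.85 to 4.26 under FGF1 and 6.47 to 7.39 in control. Both sums were lowest with BAY-876 and low under FGF8b and FGF9, as Ogn and Aspn were, and their part in the results was not tested. The first sum is carried by Col3a1, Ly6a, Col1a1 and Pdgfra, and not every marker in it was low. Thy1 averaged 58.3 RPKM under FGF9 and 62.8 under FGF8b, against 37.8 in control. Cebpb averaged 8.44 RPKM under FGF9 and 6.87 under FGF8b, against 3.19 in control, and Pparg 4.26 under FGF8b plus BAY-876, against 3.75 in control. Among the tendon markers Tnmd, encoding tenomodulin, averaged 0.0253 RPKM under FGF8b and 5.84 RPKM in control, while Scx, a tendon transcription factor gene, averaged 1.53 RPKM under FGF8b and 0.264 RPKM in control. Of 6 cartilage markers 1 was detected (Sox9) and Col9a1 was at 0 in all libraries. Of 6 bone markers 3 were detected and Ibsp was at 0. The sum of the cartilage list, nearly all Sox9, was 7.25 to 9.81 RPKM under FGF8b plus BAY-876, 3.82 to 4.80 under FGF9, 3.002 to 3.81 under FGF8b, 6.16 to 6.57 under FGF1 and 2.23 to 2.79 in control. The endothelial list, with 2 of 5 detected (Tek and Vwf), summed to 1.44 to 1.71 RPKM under FGF8b plus BAY-876, 0.306 to 0.495 under FGF9, 0.374 to 0.524 under FGF8b, 0.892 to 1.05 under FGF1 and 1.87 to 2.27 in control, with Pecam1 and Cdh5 near 0. The sum was mostly Tek in control (1.94 RPKM, with Vwf at 0.00584) and mostly Vwf under FGF8b plus BAY-876 (1.11 RPKM, against 0.0117 under FGF8b), while Tek had 0.339 RPKM under FGF8b plus BAY-876 and 0.290 under FGF8b. Their part in the results was not tested. Mural cells had 3 of 6 markers detected and macrophages 3 of the 5 in the table, with Ptprc at or near 0. No skeletal muscle marker of 5 was detected, and Myod1, Myog and Myf5 were at 0 in all libraries.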

How the data were processed

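RNA-seq libraries were prepared from whole-culture RNA with the TruSeq RNA v2 kit, per the labels' protocols, and the submitters' processing notes name CASAVA and bcl2fastq. The authors deposited 1 table of RPKM values with a decimal comma, holding 168326 transcript rows for 29072 gene symbols; aligner, build and strand setting: not given in the sources used here. The members and all lists were chosen with earlier results of these data known. Each gene was represented by its row with the highest mean. Genes at 0.5 RPKM or more in at least 3 libraries were tested with limma 3.58.1 (R 4.3.3; trend and moderated variance) on log2(RPKM + 0.5) in 1 model of the 5 groups with 10 residual degrees of freedom, with Benjamini-Hochberg adjustment. Named genes were all members, the nearest profiles of those over 1 RPKM (that of Prelp is not reported here), and up to 4 tested genes per list with the largest differences under FGF8b against control. The script was tested on simulated data. Values were turned back into whole reads, from the worth of 1 read, for 13869 of 13869 tested genes (100%; tolerance 0.02 read) and gave read totals, ratios with exact 95% intervals, and a voom fit as an alternative. Intervals cover counting error only, since reads without molecular identifiers are not independent molecules. Other alternatives were pseudocount, filter, scaling, transcript row, replicate block and leaving out each library.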

Additional observations from a re-analysis of the deposited data

How the results depend on the processing

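Of 1057 values of the 9 tested genes recomputed with another pseudocount, filter, scaling, transcript row, fit or set of libraries, 1027 kept their direction and their side of the threshold, 22 lost the call, 2 gained it and 6 changed sign. The 1057 include the Ogn and Aspn values that chose the family. They also include the values of Omd, Fmod, Kera and Prelp that the filter largely fixed. Such values were likely to stay the same, so the tally is a description only. The 6 changes of sign were all in differences near 0 that did not pass the test. Fmod, FGF8b plus BAY-876 against FGF8b, became -0.0238 with all transcript rows summed, and -0.00973 (without FGF8b plus BAY-876 replicate 3) to 0.0162 when 1 library was left out. Bgn, FGF8b against control, ran from -0.0989 to 0.0104 with 1 library left out, and was 0.00708 without FGF8b replicate 2 and 0.0104 without control replicate 1. Prelp, FGF9 against FGF8b, ran from -0.305 to 0.000153 (without FGF9 replicate 2), and Kera, FGF9 against FGF8b, from -0.00506 (without FGF8b replicate 1) to 0.138. The count of genes called for FGF9 against FGF8b was unstable, at 41 as reported (28 higher, 13 lower). It was 27 with a pseudocount of 0.1, 70 with RefSeq rows and 62 with voom on recovered reads. It ran from 6 to 35 when 1 library was left out, lowest without FGF9 replicate 3, and without FGF9 replicate 2 it was 10, without FGF8b replicate 1 also 10, without FGF8b replicate 2 it was 7 and without FGF8b replicate 3 it was 17. With these 2 groups alone in limma it was 0, with 804 genes at an unadjusted p under 0.05. The cause was not tested. In FGF8b plus BAY-876 against FGF8b, TMM scaling gave 4010 higher and 3914 lower genes, against 3117 higher and 4824 lower as deposited. With the replicate number as a block, the counts were 4850 for FGF1 against control, 9016 for FGF8b against control, 9195 for FGF9 against control, 10155 for FGF8b plus BAY-876 against control, 8026 for FGF8b plus BAY-876 against FGF8b, 8403 for FGF8b against FGF1 and 30 for FGF9 against FGF8b. The block ended 1 call, Ogn for FGF9 against FGF8b (adjusted p = 0.0774). Same-numbered libraries shared only a number: 11 of 30 pairs correlated above 0.1, with a range of -0.443 to 0.534. Depth limits Fmod, Kera, Epyc, Omd and, outside FGF1 and control, Aspn, where few reads decide a value.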
